A study of Homo sapiens with 17 samples.

Results

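The extracellular matrix genes described here are 44 listed collagen, laminin, glycoprotein and proteoglycan genes, out of 60664 genes in the RNA-Seq table of SF8628 cells. SF8628 is an established diffuse midline glioma line that carries the histone H3.3 K27M mutation. Members were chosen by symbol and sorted into 6 fibrillar collagen genes, 15 basement membrane genes and 23 other matrix genes. Averaged over the 12 libraries, 42 of the 44 reached 10 normalized counts, as did 15599 genes of the whole table. *ELN* and *FBLN5* did not reach it. Cells grown as a monolayer received either the vehicle DMSO or 1 μM AZD5153, a bivalent inhibitor of the BET bromodomain proteins, and were collected after 24 or 48 hours. Each of the 4 groups (DMSO 24 h, AZD5153 24 h, DMSO 48 h and AZD5153 48 h) holds 3 libraries, so all results come from 1 cell line. The labels do not say whether libraries of a group came from separate cultures, so the p-values measure the spread between these libraries, which may be technical.

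The extracellular matrix is the secreted protein network around cells. Fibrillar collagens are triple helices that assemble into fibers, whereas basement membranes are thin sheets in which a laminin network and a collagen IV network are joined by nidogen and heparan sulfate proteoglycans. Each laminin is a trimer of an α, a β and a γ chain, and collagen IV and VI are trimers of fixed chain sets, so the balance of partner chains matters for what a cell can assemble. In the normal brain, fibrillar collagen is largely limited to vessels and meninges, while tumor cells in culture on plastic commonly make fibronectin and collagens.

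The genes for partner chains of collagen IV lie head to head, each pair transcribed outward from the stretch between the starts. *COL4A1* and *COL4A2* on chromosome 13 have 126 bases between their RefSeq starts, and *COL4A6* and *COL4A5* on chromosome X have 379. Gene spans given later are those of GENCODE 44 over all transcripts, in which *COL4A2* begins further left, inside the span of *COL4A1*. The stretches before the starts are shown because the pairs differed in their changes with AZD5153. Both members of the first pair fell at both times. Of the second pair, *COL4A6* rose at both times, while *COL4A5* changed little (log2 fold change 0.25 at 24 hours and -0.04 at 48 hours). *FN1* and *LAMA5* are shown as the member with the most reads and the member with the largest increase at 24 hours. They are read 5′ to 3′ in the direction of the gene named, for the chromosome 13 pair in the direction of *COL4A2*, from RefSeq on GRCh38.p14, at chr13:110307158-110307283, chrX:108439588-108439837, chr2:215436069-215436318 (minus strand) and chr20:62367313-62367562 (minus strand). Capitals mark CCAAT and GGGCGG on either strand, which read ATTGG and CCGCCC on the other strand.
COL4A1-COL4A2: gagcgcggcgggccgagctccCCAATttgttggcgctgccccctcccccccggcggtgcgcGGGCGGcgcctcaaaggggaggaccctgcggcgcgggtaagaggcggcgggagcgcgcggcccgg
COL4A5: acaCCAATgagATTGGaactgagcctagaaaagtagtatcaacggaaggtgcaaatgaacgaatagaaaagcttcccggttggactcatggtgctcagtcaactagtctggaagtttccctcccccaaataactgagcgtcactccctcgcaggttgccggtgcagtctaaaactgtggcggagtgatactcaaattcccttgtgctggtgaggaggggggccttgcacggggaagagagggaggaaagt
FN1: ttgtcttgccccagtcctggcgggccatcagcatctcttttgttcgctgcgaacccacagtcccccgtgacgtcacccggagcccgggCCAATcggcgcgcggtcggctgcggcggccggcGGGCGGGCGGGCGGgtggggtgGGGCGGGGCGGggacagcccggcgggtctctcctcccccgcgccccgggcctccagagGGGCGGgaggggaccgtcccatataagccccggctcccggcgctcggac
LAMA5: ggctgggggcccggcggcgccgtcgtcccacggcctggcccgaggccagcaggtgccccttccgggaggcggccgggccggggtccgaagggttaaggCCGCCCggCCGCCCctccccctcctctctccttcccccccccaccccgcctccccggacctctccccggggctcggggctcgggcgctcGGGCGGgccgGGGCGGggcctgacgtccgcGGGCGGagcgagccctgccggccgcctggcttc
The stretch between *COL4A1* and *COL4A2* had 80.2% G or C with 1 CCAAT and 1 GGGCGG, and that before *COL4A5* had 51.2% with 2 CCAAT and no GGGCGG. The latter covers only the 250 bases on the *COL4A5* side of the 379 between the starts of the second pair. GGGCGG did occur in the 250 bases before a start of *COL4A6*, which are not printed in full. The *FN1* stretch had 76.4% G or C, 1 CCAAT and 6 GGGCGG, some of which overlap. The *LAMA5* stretch had 82.8% G or C, no CCAAT and 5 GGGCGG. A promoter was found in the RefSeq table for 34 of the 44 members, and the 250 bases before the start were searched on both strands. A member was counted if any of its promoters held the motif, whereas the share of all promoters counts each promoter singly. The percentages that follow are therefore unlike measures, and a gene with several promoters has more chances to be counted. CCAAT occurred in 11 of the 34 (32.4%) and in 32.0% of all 35116 promoters of the table. GGGCGG occurred in 26 of the 34 (76.5%) and in 42.6% of all promoters. TATAAA occurred in 6 of the 34 (17.6%, against 10.7% of all), and TGANTCA only in that of *POSTN* (2.94%, against 6.57%). Such a match is a description of the letters and not a binding site. *AGRN*, *COL1A1*, *COL1A2*, *COL3A1*, *COL5A2*, *COL6A1*, *COL8A1*, *DCN*, *ELN* and *LUM* were not matched.

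Gene reads per library numbered 15759148 to 27335220. DMSO 24 h replicate 1 stood apart from its group, with a median absolute deviation of the members from their group mean of 0.198 on the log2 scale, against 0.038 to 0.139 in the other libraries. Without it, the members higher and lower with AZD5153 still numbered 9 and 31 at 24 hours and 6 and 33 at 48 hours. Of the midline glioma and glial markers, 5 of 11 reached a mean of 10 normalized counts (*SOX2*, *NES*, *VIM*, *GFAP* and *PTPRZ1*). With AZD5153, 3 of these 5 fell and 1 rose at 24 hours (60% and 20%), and 2 fell and 1 rose at 48 hours (40% and 20%). *OLIG1*, *OLIG2* and *NKX2-2* were at 0 in every library, and *PDGFRA* and *SOX10* averaged 2.66 and 1.01, so defining markers of the oligodendroglial lineage were at or near 0. The fibroblast and mesenchymal markers had 8 of 10 measured, and the sum of all 10 was lower with AZD5153. Their summed normalized counts ranged from 11621 to 11698 in DMSO 24 h, 4329 to 4398 in AZD5153 24 h, 11106 to 11496 in DMSO 48 h and 5297 to 5416 in AZD5153 48 h. Of the 8 measured, 1 rose and 5 fell at 24 hours (12.5% and 62.5%), and 1 rose and 3 fell at 48 hours (12.5% and 37.5%). Of all genes, 33.9% rose and 34.6% fell at 24 hours, and 33.1% rose and 33.9% fell at 48 hours. The share of these markers that fell at 48 hours is thus near that of all genes. *PDGFRB* (log2 fold change -1.97 at 24 hours and -2.01 at 48 hours), *FAP* (-3.85 and -6.07) and *PRRX1* (-3.84 and -2.85) fell at both times, while *PDPN* was at 0. *TAGLN* rose at 24 hours (1.16, adjusted p = 0.00032; 0.38, adjusted p = 0.16 at 48 hours), and *TWIST2* rose at 48 hours (0.26, adjusted p = 0.014; -0.17, adjusted p = 0.094 at 24 hours). The part of these marker changes in the matrix results was not tested. In bulk RNA, fewer cells of a type and less RNA per cell cannot be told apart. The summed endothelial markers (6 genes, *CDH5* at 0) ran from 337 to 651 in DMSO and from 59 to 95.2 in AZD5153, and the myeloid markers (7 genes, *AIF1* at 0) from 185 to 230 and from 36.5 to 59.8. These sums do not stand for a common fall, as only 3 endothelial and 2 myeloid markers were measured. Of the endothelial markers, 2 fell and 1 rose at 24 hours, and 2 fell at 48 hours. Of the myeloid markers, 1 fell and 1 did not pass the test at either time. Epithelial markers (6 genes, *KRT5* and *KRT14* at 0) summed to 1028 to 1835 and neuron markers (5 genes) to 703 to 926.

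Most of the matrix genes were lower with AZD5153 at both times, while the basement membrane genes went both ways. At 24 hours, 31 of the 42 measured members fell and 9 rose, which is 73.8% and 21.4% of them, where 34.6% and 33.9% of all genes tested fell and rose. At 48 hours, 33 fell and 6 rose (78.6% and 14.3%), where 33.9% and 33.1% of all genes fell and rose. The median log2 fold change of the members was -1.06 at 24 hours and -1.69 at 48 hours, against 0.00 for all genes at both times. A fall by at least 1 on the log2 scale was found for 22 members at 24 hours (15.7% of all genes) and 27 members at 48 hours (16.5% of all genes). At both times, 30 members fell and 6 rose (27.1% and 26.0% of all genes), and *FBN2* alone rose at 24 hours and fell at 48 hours (1.62% of all genes). All tests are limma on log2(normalized count + 1) with Benjamini-Hochberg adjustment over the 15599 genes. Both comparisons enter 1 fit, and on this scale the change of a gene with few reads comes out too small. Every AZD5153 library lay below every DMSO library for 31 members at 24 hours and 34 at 48 hours, and above them for 9 and 6. Over all genes, 34.8% and 37.2% lay below and 34.0% and 37.5% above.

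**Figure D1:**
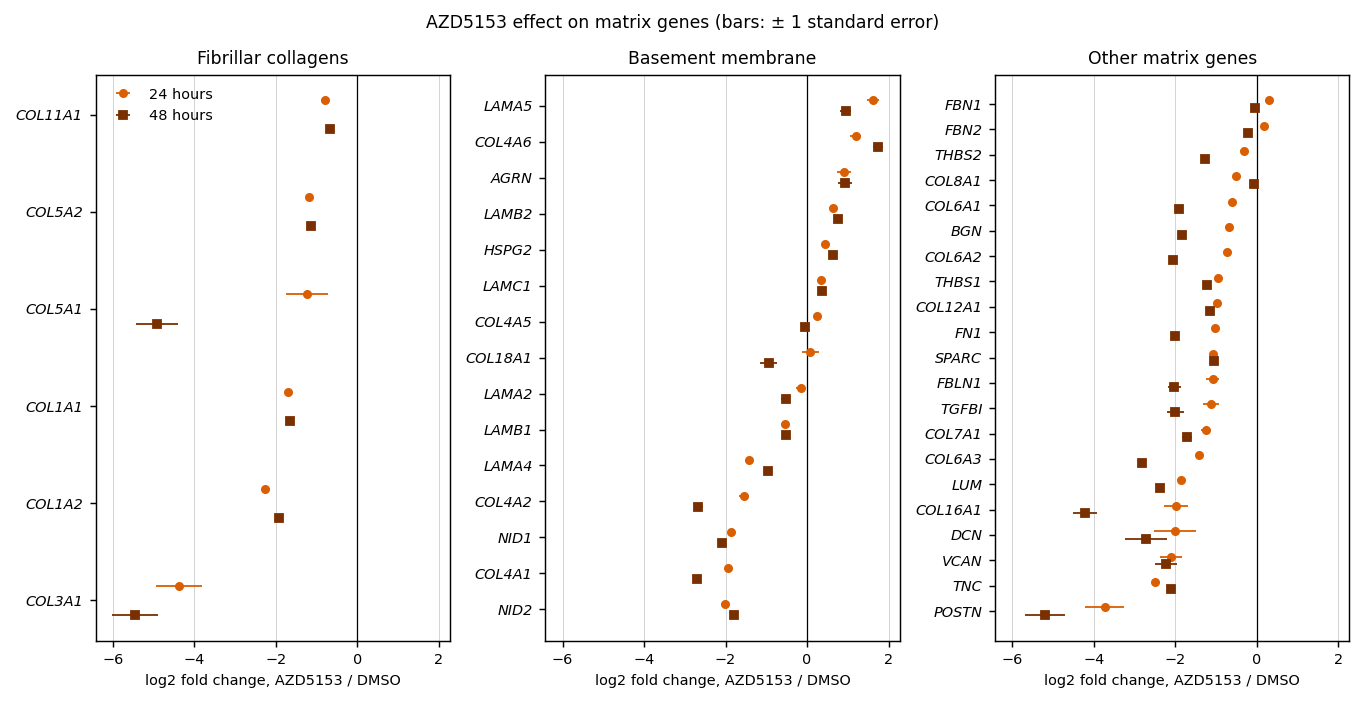
Log2 fold change of AZD5153 against DMSO for the 42 measured matrix genes at 24 hours (circles) and 48 hours (squares), by class, with bars of 1 standard error on either side. All 6 fibrillar collagens lie to the left of 0, the basement membrane genes lie on both sides from 1.75 (*COL4A6*) to -2.70 (*COL4A1*), and the other matrix genes lie to the left apart from *FBN1* and *FBN2* at 24 hours.

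The classes differed in their counts. The fibrillar collagens fell in 6 of 6 at both times, with median log2 fold changes of -1.47 and -1.79. Of the 15 basement membrane genes, 7 rose and 6 fell at 24 hours (46.7% and 40%). At 48 hours, 6 rose and 8 fell (40% and 53.3%). The share that fell at 24 hours is near the 34.6% of all genes, and the share that rose at 48 hours near their 33.1%. The medians of this class were 0.08 and -0.51. The median at 24 hours is not stable in sign, being -0.13 without DMSO 24 h replicate 1 and -0.04 with libraries scaled to equal totals. Of the 21 measured other matrix genes, 19 fell at either time, with medians of -1.08 and -2.00. *FBN1* and *FBN2* rose at 24 hours, and *FBN1* and *COL8A1* did not pass the test at 48 hours.

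As a share of all gene reads, the 44 members took 4.49% ± 0.0503 (SD, n = 3) in DMSO 24 h and 1.99% in AZD5153 24 h, where the 3 libraries did not differ at this rounding. At 48 hours they took 5.64% ± 0.159 in DMSO and 1.41% ± 0.0173 in AZD5153. Most of this is *FN1*, whose share was 2.74% ± 0.169 and 1.23% ± 0.0208 at 24 hours and 3.71% ± 0.119 and 0.816% ± 0.015 at 48 hours. Without *FN1*, the members took 1.74% in DMSO and 0.764% in AZD5153 at 24 hours, then 1.94% and 0.593% at 48 hours. The fibrillar collagens took 0.363% and 0.0982% at 24 hours and 0.455% and 0.126% at 48 hours. The basement membrane genes took 0.318% and 0.228%, then 0.332% and 0.254%, so their share moved least among the classes.

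**Figure D2:**
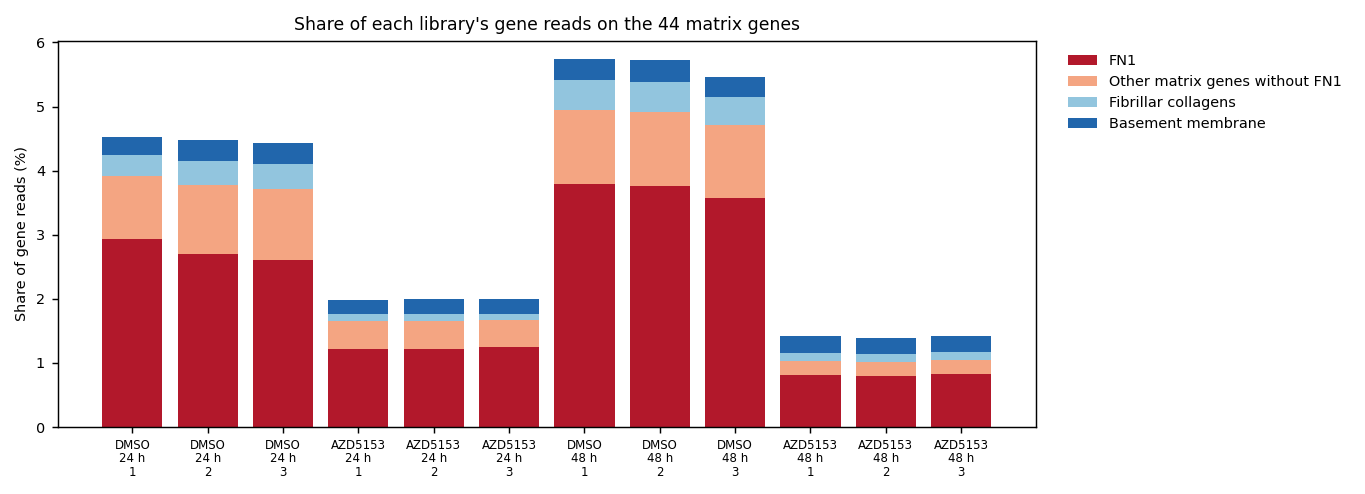
Share of each library's gene reads (%) on the 44 matrix genes, stacked by *FN1*, the other matrix genes without it, fibrillar collagens and basement membrane genes, 1 bar per library in the 4 groups. The DMSO bars average 4.49% and 5.64%, the AZD5153 bars 1.99% and 1.41%, and *FN1* is the largest part of each.

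Type I collagen, the main collagen of fibrous tissue, is a trimer of *COL1A1* and *COL1A2* chains, and it was the most abundant fibrillar collagen. Per kilobase of exon, *COL1A1* was the second member by mean level over all libraries, with 3914 normalized counts per kb against 24054 for *FN1*. *COL6A3* (3884) and *COL6A1* (3753) were close behind it. This rank depends on the exon lengths, as the mean normalized count of *COL6A3* (83575) was above that of *COL1A1* (35253). *COL1A1* (chromosome 17, 50184101 to 50201632, GRCh38) had normalized counts of 42070, 52484 and 54745 in DMSO 24 h, 15396, 15450 and 14713 in AZD5153 24 h, 59769, 58743 and 54917 in DMSO 48 h, and 18463, 18188 and 18101 in AZD5153 48 h. No AZD5153 library reached a DMSO library of its time, and the log2 fold changes were -1.70 ± 0.072 (SE, adjusted p = 8.9e-12) and -1.66 ± 0.072 (adjusted p = 1.3e-11). *COL1A2* (chromosome 7, 94394895 to 94431227) had 13915, 15964 and 16368 in DMSO 24 h, 3258, 3209 and 3160 in AZD5153 24 h, 22796, 22978 and 21514 in DMSO 48 h, and 5788, 5948 and 5991 in AZD5153 48 h. It fell by 2.26 (adjusted p = 2e-14) and 1.92 (adjusted p = 1.1e-13) on the log2 scale, again with no overlap of the libraries. The ratio of *COL1A1* to *COL1A2* per kb was 3.86 ± 0.206 in DMSO 24 h and 5.68 ± 0.0958 in AZD5153 24 h, and 3.09 ± 0.0468 in DMSO 48 h and 3.71 ± 0.106 in AZD5153 48 h, so it was higher with AZD5153 in every library at either time.

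The minor fibrillar collagens fell from low levels. *COL3A1*, the type III chain that accompanies type I in soft tissue, had 31.56, 47.69 and 64.19 normalized counts in DMSO 24 h and 0, 4.096 and 1.224 in AZD5153 24 h, then 63.05, 55.85 and 47.51 in DMSO 48 h and 0, 1.087 and 0 in AZD5153 48 h. These are 5 reads against 167 at 24 hours and 1 read against 177 at 48 hours, which at 48 hours is a ratio of summed reads, adjusted for depth, of 0.00561 (exact 95% interval from counting error 0.000141 to 0.0317). *COL3A1* passed the test at both times (log2 fold change -4.38 and -5.46, adjusted p = 4.8e-06 and 4e-07), but the size of the fold depends on the pseudocount. *COL5A1*, a chain of the type V collagen that regulates fibril diameter, had 86.79, 99.65 and 115.9 in DMSO 24 h, 42.9, 45.05 and 37.94 in AZD5153 24 h, 89.17, 104.6 and 113.4 in DMSO 48 h, and 6.383, 4.346 and 0 in AZD5153 48 h. Its libraries did not overlap at either time. The fall at 48 hours was 4.92 on the log2 scale (adjusted p = 3.5e-07), and that at 24 hours, 1.24, passed narrowly (adjusted p = 0.041) and was lost without DMSO 24 h replicate 2 or 3, any AZD5153 24 h library or any DMSO 48 h library (log2 fold change -1.13 to -1.29, adjusted p up to 0.098). *COL5A2*, the partner type V chain, fell by 1.19 and 1.14. *COL11A1*, a type XI chain related to type V, fell by 0.80 and 0.67. *COL5A2* and *COL11A1* had adjusted p from 2.3e-11 to 1.2e-05.

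**Figure D3:**
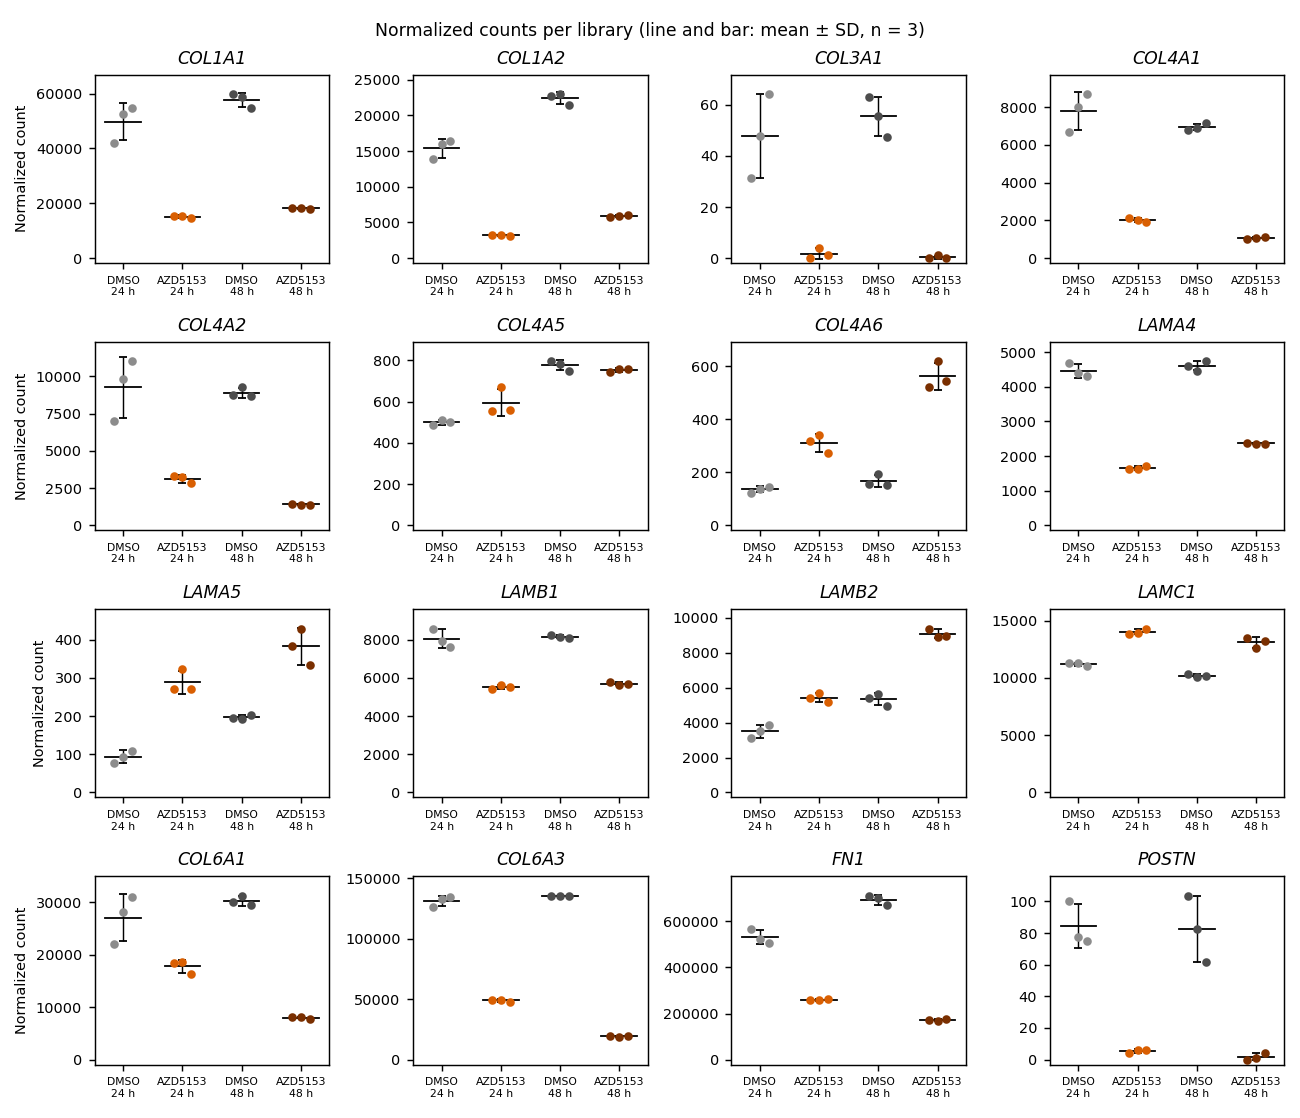
Normalized count in each library (points) of 16 matrix genes in the 4 groups, with the mean (line) and SD (bar) of 3 libraries, on linear axes from 0. *COL1A1*, *COL1A2*, *COL4A1*, *COL4A2*, *COL6A3*, *FN1* and *POSTN* are lower in every AZD5153 library than in the DMSO libraries of the same time, and *COL4A6*, *LAMA5*, *LAMB2* and *LAMC1* are higher.

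The collagen IV chains of the basement membrane moved in opposite directions. *COL4A1* and *COL4A2* encode the common α1 and α2 chains and fell strongly, while *COL4A5* changed little and *COL4A6*, whose chain pairs with α5, rose. *COL4A1* (chromosome 13, 110148963 to 110307157) had 6692, 8015 and 8684 normalized counts in DMSO 24 h, 2149, 2024 and 1930 in AZD5153 24 h, 6814, 6870 and 7157 in DMSO 48 h, and 1020, 1046 and 1147 in AZD5153 48 h. *COL4A2* (110305812 to 110513209 on the same chromosome) had 6991, 9818 and 11014, then 3322, 3221 and 2835, then 8728, 9301 and 8714, and 1453, 1396 and 1349 in the same order of groups. *COL4A1* fell by 1.93 and 2.70 and *COL4A2* by 1.55 and 2.67 on the log2 scale, with no overlap of the libraries and adjusted p from 7.6e-09 to 1.5e-13. Their gene spans overlap on opposite strands in the annotation, but their exons share 0 bases. The ratio of *COL4A2* to *COL4A1* per kb had group means between 0.897 and 1.17, and at 24 hours it was higher in every AZD5153 library than in the DMSO libraries.

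*COL4A6* (chromosome X, 108155607 to 108439497) had 122.9, 138.8 and 145.3 normalized counts in DMSO 24 h, 317.8, 342 and 274.2 in AZD5153 24 h, 155.8, 192.4 and 152.2 in DMSO 48 h, and 521.6, 619.3 and 546.7 in AZD5153 48 h. Every AZD5153 library was above every DMSO library of its time, and the log2 fold changes were 1.19 (adjusted p = 4.2e-07) and 1.75 (adjusted p = 4.2e-09). *COL4A5* (108439838 to 108697545 on chromosome X) had 488.1, 510.3 and 501.9 in DMSO 24 h and 555.1, 671.7 and 559.4 in AZD5153 24 h, then 795.4, 782.8 and 748.3 in DMSO 48 h and 743.1, 759.5 and 756.4 in AZD5153 48 h. It was higher at 24 hours by 0.25 (adjusted p = 0.011), which was lost with equal totals (0.12, adjusted p = 0.17), with only the groups compared (0.25, adjusted p = 0.055) and without AZD5153 24 h replicate 2 (0.16, adjusted p = 0.077). At 48 hours the libraries overlapped (log2 fold change -0.04, adjusted p = 0.65). The ratio of *COL4A1* to *COL4A5* per kb was 12.6 ± 1.46 and 2.79 ± 0.347 at 24 hours and 7.26 ± 0.426 and 1.15 ± 0.0657 at 48 hours for DMSO and AZD5153. That of *COL4A5* to *COL4A6* was 2.89 ± 0.203 and 1.5 ± 0.119, then 3.67 ± 0.431 and 1.05 ± 0.0819. Neither ratio overlapped between treatments. *COL18A1*, the collagen that holds endostatin at its end, differed by 0.08 at 24 hours (adjusted p = 0.74) and fell by 0.94 at 48 hours (adjusted p = 0.00079). Its exons share 1563 bases with *SLC19A1*, a gene of the other strand, whose mean was 884 normalized counts against 345 for *COL18A1* and whose log2 fold changes were -1.17 and -1.40. Reads in the shared bases cannot be assigned to 1 of the 2 genes if strand was not used. Whether such reads were left out or counted is not stated.

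Among the laminin chains of the members, the ratios of *LAMA5* to *LAMA4* and of *LAMB2* to *LAMB1* rose with AZD5153. Other α chains were also present. *LAMA1*, not a member, changed little (0.03 and 0.01, adjusted p = 0.66 and 0.89). With AZD5153 it had 186.1 and 151.7 normalized counts per kb at 24 and 48 hours, against 20.15 and 26.75 for *LAMA5*. *LAMA3*, also not a member, fell by 1.37 and 1.01, to 26.66 and 34.69 per kb. *LAMA5* (chromosome 20, 62307955 to 62367312), the α5 chain of mature epithelial and vessel basement membranes, had 76.65, 93.96 and 109.7 normalized counts in DMSO 24 h, 270.8, 322.5 and 270.5 in AZD5153 24 h, 194.6, 193.3 and 203 in DMSO 48 h, and 383.9, 429.2 and 333.7 in AZD5153 48 h. It rose by 1.62 and 0.95 on the log2 scale (adjusted p = 3.7e-08 and 1.7e-05), with no overlap. Its exons share 244 bases with *ADRM1* on the opposite strand (mean 681 normalized counts against 240), whose log2 fold changes were 0.06 and 0.12. *LAMA4*, the α4 chain of vessels and mesenchyme, fell by 1.43 and 0.96 (adjusted p = 8.4e-13 and 7.8e-11). Per kb, *LAMA5* stood at 0.0177 ± 0.00383 of *LAMA4* in DMSO 24 h and 0.146 ± 0.0187 in AZD5153 24 h, and at 0.0359 ± 0.000457 and 0.135 ± 0.0168 at 48 hours. *LAMA4* thus remained the higher of the 2 genes in every group.

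*LAMB2* rose by 0.63 and 0.77 (adjusted p = 6.5e-07 and 6.3e-08), and *LAMB1* fell by 0.54 and 0.51 (adjusted p = 3.6e-08 and 6.4e-08). Their ratio per kb, *LAMB2* to *LAMB1*, was 1.19 ± 0.193 and 2.66 ± 0.0984 at 24 hours and 1.78 ± 0.108 and 4.32 ± 0.0727 at 48 hours. Its level depends on the exon lengths used, 18592 bases for *LAMB1* and 6865 for *LAMB2*, but its change with AZD5153 does not. In mean normalized counts, *LAMB1* was the higher gene in DMSO (8040 against 3513 at 24 hours, 8145 against 5343 at 48 hours). With AZD5153 the counts were 5520 for *LAMB1* and 5426 for *LAMB2* at 24 hours, and 5700 and 9091 at 48 hours. *LAMB1* shares 300 exon bases with *DLD* on the opposite strand. *LAMC1* (chromosome 1, 183023420 to 183145592), the γ1 chain common to most laminins, was the basement membrane gene with the highest mean per kb, 1437 normalized counts per kb. It had 11262, 11284 and 11015 normalized counts in DMSO 24 h, 13874, 13931 and 14316 in AZD5153 24 h, 10340, 10119 and 10177 in DMSO 48 h, and 13518, 12606 and 13234 in AZD5153 48 h. It rose by 0.33 and 0.36 (adjusted p = 1.9e-06 and 6.3e-07), without overlap, but with quantile normalization the rise at 48 hours was 0.05 (adjusted p = 0.28). *LAMA2*, the α2 chain of muscle and nerve, was lower by 0.16 at 24 hours without passing (adjusted p = 0.24), and fell by 0.53 at 48 hours.

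**Figure D4:**
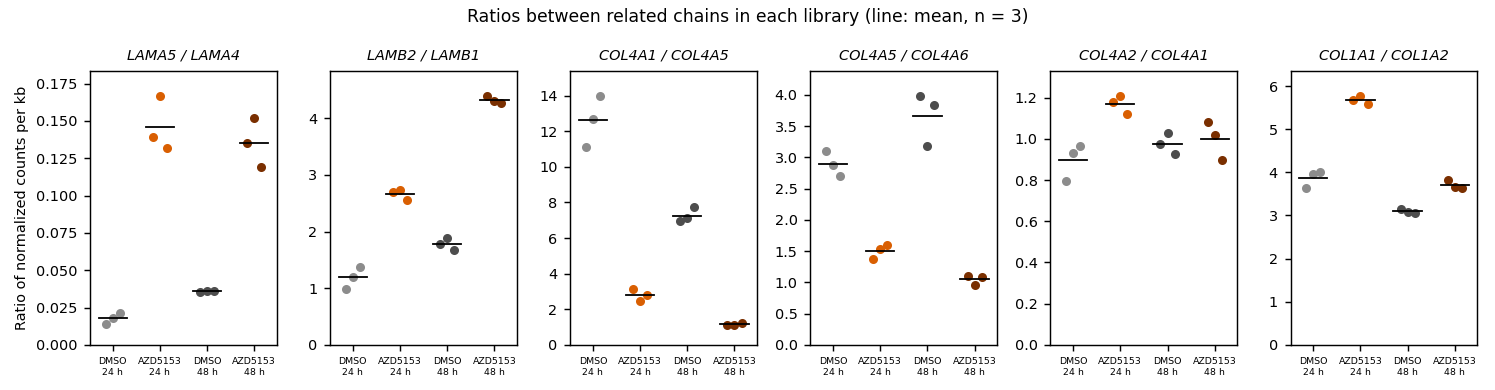
Ratio of normalized counts per kb between related chains in each library (points) with the group mean (line, n = 3), on linear axes from 0. With AZD5153, *LAMA5* to *LAMA4* rises from 0.0177 to 0.146 at 24 hours, *LAMB2* to *LAMB1* from 1.78 to 4.32 at 48 hours, and *COL4A1* to *COL4A5* drops from 7.26 to 1.15 at 48 hours, while the group means of *COL4A2* to *COL4A1* lie between 0.897 and 1.17.

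The other basement membrane genes split by kind. Nidogen 1 and 2 (*NID1* and *NID2*), which link laminin to collagen IV, both fell. The log2 fold changes were -1.86 and -2.09 for *NID1* and -2.02 and -1.80 for *NID2*, with adjusted p between 6.3e-14 and 2e-11. *NID2* shares 1909 exon bases with *RTRAF*, which had a mean of 1281 normalized counts against 1865 for *NID2* and log2 fold changes of -0.24 and 0.06. The heparan sulfate proteoglycans perlecan (*HSPG2*) and agrin (*AGRN*) both rose, by 0.44 and 0.64 and by 0.90 and 0.94. *AGRN* had 1457, 2572 and 3010 in DMSO 24 h against 4186, 4423 and 3996 in AZD5153 24 h, and 3102, 3402 and 2943 against 6137, 6064 and 5884 at 48 hours, with no overlap at either time. DMSO 24 h replicate 1 was the lowest library, and without it the rise of *AGRN* at 24 hours was 0.59.

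The other collagens fell in 7 of 7 at 24 hours and 6 of 7 at 48 hours, with *COL8A1* the exception (-0.07, adjusted p = 0.47, after a fall by 0.52 at 24 hours). Collagen VI forms beaded filaments in most connective tissue from α1, α2 and α3 chains. *COL6A3* (chromosome 2, 237324003 to 237414328) had 126014, 132514 and 134445 normalized counts in DMSO 24 h, 49432, 49514 and 47668 in AZD5153 24 h, 135166, 135264 and 135468 in DMSO 48 h, and 19462, 18519 and 19436 in AZD5153 48 h. *COL6A1* (chromosome 21, 45981770 to 46005050) had 22087, 28144 and 31008, then 18377, 18664 and 16229, then 30054, 31260 and 29456, and 8141, 8097 and 7829. *COL6A2* (46098112 to 46132848 on chromosome 21) had 10398, 12571 and 14120, then 7567, 7593 and 6989, then 15198, 15778 and 14092, and 3724, 3469 and 3648. AZD5153 libraries of all 3 chains lay below every DMSO library of their time. *COL6A3* fell by 1.42 and 2.82, *COL6A1* by 0.60 and 1.91 and *COL6A2* by 0.73 and 2.05 (adjusted p from 2.1e-05 to 4.2e-17). The ratio of *COL6A3* to *COL6A1* per kb was 1.27 ± 0.182 and 0.71 ± 0.0398 at 24 hours and 1.15 ± 0.0354 and 0.614 ± 0.0252 at 48 hours, and that of *COL6A2* to *COL6A1* had group means between 0.432 and 0.515.

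*COL16A1*, a collagen bound to fibrils, had 107.1, 206.4 and 222 normalized counts in DMSO 24 h, 44.25, 62.46 and 26.93 in AZD5153 24 h, 186.5, 169.3 and 197.6 in DMSO 48 h, and 9.118, 7.606 and 10.27 in AZD5153 48 h. The libraries did not overlap, and it fell by 1.99 and 4.22 (adjusted p = 2.4e-05 and 4.1e-09). *COL7A1*, the anchoring fibril collagen, fell by 1.26 and 1.72, and *COL12A1*, which decorates fibrils, by 0.98 and 1.16.

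Fibronectin (*FN1*), the adhesive glycoprotein that binds integrins and collagen, held more reads than any other gene of the table in every DMSO library and in the AZD5153 24 h libraries. *FN1* (chromosome 2, 215360440 to 215436073) had 565042, 525127 and 506075 normalized counts in DMSO 24 h, 256751, 256648 and 263421 in AZD5153 24 h, 711047, 700009 and 669892 in DMSO 48 h, and 172051, 167805 and 175462 in AZD5153 48 h. The groups did not overlap, and it fell by 1.04 ± 0.045 (SE, adjusted p = 1.3e-11) and 2.01 ± 0.045 (adjusted p = 1e-14). With quantile normalization the fall at 24 hours is 0.00 by construction, as the gene with most reads is given the same value in every library. The other adhesive and matricellular genes also fell at both times, 7 of 7 with *FN1*. *POSTN*, the matricellular protein periostin, had 100.3, 77.58 and 74.89 in DMSO 24 h, 4.022, 6.143 and 6.12 in AZD5153 24 h, 103.6, 82.45 and 61.55 in DMSO 48 h, and 0, 1.087 and 4.278 in AZD5153 48 h. These were 14 reads against 282 and 6 reads against 265, and the log2 fold changes were -3.74 and -5.20 (adjusted p = 4.2e-06 and 9.5e-08). *TNC*, tenascin C of the glioma matrix, fell by 2.51 and 2.11. *SPARC*, a collagen-binding glycoprotein, fell by 1.08 and 1.06. *THBS1* and *THBS2*, the thrombospondins, fell by 0.95 and 1.22 and by 0.32 and 1.27, and *TGFBI*, a TGF-β-induced integrin ligand, by 1.13 and 2.00.

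Of the 3 measured elastic fiber genes, 2 rose and 1 fell at 24 hours, and 2 fell at 48 hours. *FBN1*, the microfibril protein fibrillin 1, had 2530, 2254 and 2187 normalized counts in DMSO 24 h and 2936, 2811 and 2821 in AZD5153 24 h, and 2400, 2381 and 2308 in DMSO 48 h and 2299, 2281 and 2276 in AZD5153 48 h. It rose by 0.30 at 24 hours (adjusted p = 0.00018). At 48 hours every AZD5153 library was below every DMSO library, but the difference of -0.05 did not pass (adjusted p = 0.46). *FBN2*, fibrillin 2, rose by 0.17 (adjusted p = 0.031) and then fell by 0.21 (adjusted p = 0.01), but both calls were lost under some alternatives, the rise with equal totals (0.05, adjusted p = 0.53) and without DMSO 24 h replicate 3 (0.16, adjusted p = 0.063) or AZD5153 24 h replicate 1 (0.16, adjusted p = 0.082) or 3 (0.15, adjusted p = 0.092), and the fall without AZD5153 48 h replicate 2 (-0.14, adjusted p = 0.07). *FBLN1*, fibulin 1, fell by 1.08 and 2.03. *ELN*, the elastin gene, had 9, 16, 19 and 25 reads in all in DMSO 24 h, AZD5153 24 h, DMSO 48 h and AZD5153 48 h, and *FBLN5* had 2, 1, 0 and 4, so neither was tested.

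All 4 proteoglycan genes of the other matrix fell at both times. Versican (*VCAN*), a large hyaluronan-binding proteoglycan, fell by 2.11 and 2.23. The small leucine-rich proteoglycans, which bind collagen fibrils, also fell, with log2 fold changes of -0.68 and -1.84 for biglycan (*BGN*), -1.86 and -2.38 for lumican (*LUM*) and -2.01 and -2.72 for decorin (*DCN*). *DCN* rests on few reads, 11 against 67 at 24 hours and 6 against 51 at 48 hours. The adjusted p of the 4 genes ran from 0.0028 to 7.9e-12.

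The effect of AZD5153 differed between the times for 23 members by the interaction term. The effect at 48 hours was lower than at 24 hours for 18 members and higher for 5, or 42.9% and 11.9% of the 42, where 10.1% and 14.4% of all genes did so. Of the 21 measured other matrix genes 13 were lower at 48 hours, with the 3 collagen VI chains, *FN1*, *BGN* and *COL16A1* among them. *COL5A1* had the largest difference, -3.68 ± 0.720 (SE, adjusted p = 0.0017). The higher values at 48 hours were a smaller fall for *COL1A2* (0.34), *LAMA4* (0.47), *TNC* (0.40) and *COL8A1* (0.45), and a larger rise for *COL4A6* (0.56), where the test was lost without AZD5153 48 h replicate 2 (0.49, adjusted p = 0.081) and without 6 other single libraries. The count of higher values was 9 without DMSO 24 h replicate 1, so it rests in part on that library. Both effects and their difference share libraries with each other.

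In DMSO alone, 13 members were higher and 8 lower at 48 hours than at 24 hours (31% and 19%), where 16.4% and 19.3% of all genes were. The share that was lower is near that of all genes. *LAMA5* had the largest increase over time, by 1.08 (adjusted p = 2.7e-05), followed by *COL11A1* (0.81), *THBS2* (0.65), *COL4A5* (0.63), *LAMB2* (0.61), *COL18A1* (0.56) and *COL1A2* (0.54). The call of *COL18A1* (adjusted p = 0.045) was lost under several alternatives, among them without DMSO 24 h replicate 1 (0.23, adjusted p = 0.15). *FN1* rose by 0.38 (adjusted p = 1.4e-05). *THBS1*, *COL12A1*, *NID2*, *LUM* and *TNC* fell, by 0.75, 0.73, 0.61, 0.60 and 0.54. These values share the DMSO libraries with the treatment effects above. The split depended on scaling, being 17 higher and 6 lower with equal totals and 16 and 5 with quantile normalization, and 8 were higher without DMSO 48 h replicate 2.

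Genes that make, cut, bind or regulate the matrix were counted on separate lists, to be read against the 34.6% of all genes that fell and 33.9% that rose at 24 hours and the 33.9% and 33.1% at 48 hours. Of 32 further collagen and laminin genes 17 were measured, and 11 fell and 1 rose at 24 hours (64.7% and 5.88%) and 13 fell and 1 rose at 48 hours (76.5% and 5.88%). The gene that rose was *COL11A2* (1.39 and 1.15), a type XI chain, and the largest falls were those of *COL28A1* (-4.21 and -3.95) and *COL8A2* (-2.72 and -3.78). *COL28A1* rests on few reads, 2 against 101 at 24 hours and 4 against 95 at 48 hours, so the size of its fold depends on the pseudocount. Of the 30 measured genes of collagen folding and processing, 17 fell and 8 rose at 24 hours (56.7% and 26.7%) and 16 fell and 9 rose at 48 hours (53.3% and 30%). *P4HA1*, a catalytic subunit of prolyl 4-hydroxylase, rose by 1.48 and 1.08 and *TLL2*, a tolloid-like protease, by 1.82 and 1.73, the latter from a mean of 7.833 to 26.86 normalized counts at 24 hours. *PCOLCE*, which enhances procollagen cleavage, fell by 1.36 and 3.30, and *TLL1*, another tolloid-like protease, by 2.66 and 3.07.

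Of 23 measured matrix turnover genes, 12 fell (52.2%) and 8 rose (34.8%) at either time, and the share that rose is near that of all genes. The interstitial collagenase *MMP1* fell (log2 fold change -3.94 and -5.96), with 248.7 ± 32.68 normalized counts in DMSO 24 h, 15.21 ± 2.011 in AZD5153 24 h, 230.3 ± 17.51 in DMSO 48 h and 3.023 ± 1.771 in AZD5153 48 h (SD, n = 3). Stromelysin *MMP3* fell as well (-3.64 and -2.51). *TIMP3*, a metalloproteinase inhibitor, rose by 1.08 and 2.10, and the protease *ADAMTS1* by 1.32 and 1.40. Of 23 measured matrix receptors, 10 fell (43.5%) and 8 rose (34.8%) at 24 hours, where the share that rose is again near that of all genes, and 11 fell (47.8%) and 10 rose (43.5%) at 48 hours. *ITGA3*, the integrin α3 chain of a laminin receptor, rose by 1.32 and 1.34, with 57095 ± 6802 normalized counts in DMSO 24 h, 142343 ± 7042 in AZD5153 24 h, 63735 ± 3152 in DMSO 48 h and 161075 ± 2120 in AZD5153 48 h. Syndecan 4 (*SDC4*) rose by 1.59 and 2.09, whereas syndecan 1 (*SDC1*) fell by 2.64 and 1.93 and the collagen-binding integrin chain *ITGA10* by 3.17 and 5.43.

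All 20 genes of the TGF-β list, which regulates many matrix genes, were measured, and 11 fell and 3 rose at 24 hours (55% and 15%) and 15 fell and 3 rose at 48 hours (75% and 15%). *LTBP1*, which stores latent TGF-β in the matrix, fell (-2.90 and -2.84), as did *LRRC32*, which holds it at the cell surface (-3.14 and -4.33, from a mean of 18.32 normalized counts in DMSO 24 h). The SMAD corepressor *SKI* rose by 1.19 and 1.23, and the ubiquitin ligase *SMURF1* by 0.23 at both times. The lists' median log2 fold changes at 24 and 48 hours were -1.15 and -1.55 for further collagens and laminins, -0.36 and -0.28 for folding and processing, -0.36 and -0.60 for turnover, -0.01 and -0.24 for receptors and -0.35 and -0.68 for TGF-β, against 0.00 for all genes.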

How the data were processed

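RNA-Seq of SF8628 cells was measured in 12 libraries, and groups and replicate numbers were taken from their labels. Per the paper and labels, the authors extracted total RNA, sequenced paired-end reads, aligned them to hg38 with STAR, counted genes with HTSeq and used DESeq2. Tool versions, the annotation and the strand setting are not given in the sources used here. The authors deposited a signal per library, namely gene counts divided by 1 size factor. The same deposited table holds results of the authors' own DESeq2 contrast, namely log2 fold changes, standard error and test statistic scores, and p-values, which were not used. All values (100% in each library) were multiples of a library's step within a tolerance of 0.01 reads, so reads per gene were recovered, with 15759148 to 27335220 reads per library (median 20737337). Every replicate pair differed by more than sampling noise. 0 columns of libraries were left unmapped, and the CUT&RUN samples were not analysed here.

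Genes averaging 10 or more normalized counts were tested on log2(normalized count + 1) with limma 3.58.1 in R 4.3.3 (lmFit, eBayes with a trend, 1 mean per group, all 12 libraries, 8 residual degrees of freedom), with Benjamini-Hochberg adjustment at 0.05 over 15599 genes. As reads could be recovered, the edgeR 4.0.16 quasi-likelihood test and DESeq2 1.42.0 were run on them as alternatives and gave 9 higher and 31 lower members each at 24 hours and 6 and 33 at 48 hours. Other alternatives were the pseudocount (0.5, 10), the minimum mean (none, 100), equal totals, quantile normalization, the replicate number as a block, fits of only the groups compared, a minimum log2 change of 1 and leaving out each library. The fit was tested on simulated data. Positions and exon lengths, used for values per kb, are those of GENCODE 44 on GRCh38, and a ratio of chains was taken within each library. The exon length of a gene covers the exons of all its annotated transcripts, which can exceed the length of the transcript made. Levels per kb of different genes are therefore rough, while the change of a ratio between groups does not depend on length. Tables were made with Python 3.11.15 and pandas 2.3.3. The interval for a ratio of few reads is exact and covers counting error only.

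The members and lists were chosen with earlier results of these data known. The value of 1 marker gene is not reported here. Values per library are given for the member of each class with the highest mean per kb, the 2 that rose and the 2 that fell most (mean of both times) and the largest difference between times, and for partner chains and *FN1*. *AGRN* was added after its values were seen. From each pathway list, the 2 genes that rose most and the 2 that fell most, past the threshold at both times, are named. *LAMA1* and *LAMA3* were added as further laminin α chains after their values were seen.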

Additional observations from a re-analysis of the deposited data

Results flagged for a closer look

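The effect of AZD5153 differed between 24 and 48 hours, by the limma interaction term at an adjusted p under 0.05, for 23 matrix genes. The values are the log2 effect at 48 hours minus that at 24 hours. Among collagens of the fibrils the difference was -3.68 for *COL5A1* and 0.34 for *COL1A2*. In the basement membrane it was -0.77 for *COL4A1*, -1.12 for *COL4A2*, 0.56 for *COL4A6*, -1.02 for *COL18A1*, 0.47 for *LAMA4* and -0.68 for *LAMA5*. Among the other collagens it was -1.32 for *COL6A1*, -1.32 for *COL6A2*, -1.40 for *COL6A3*, 0.45 for *COL8A1* and -2.23 for *COL16A1*. Among the glycoproteins it was -0.98 for *FN1*, 0.40 for *TNC*, -0.27 for *THBS1*, -0.95 for *THBS2* and -0.87 for *TGFBI*. In the elastic fiber and the proteoglycans it was -0.35 for *FBN1*, -0.38 for *FBN2*, -0.95 for *FBLN1*, -1.17 for *BGN* and -0.52 for *LUM*. The adjusted p ran from 5e-10 (*COL6A3*) to 0.036 (*TGFBI*). Of the 23 calls, 18 held under every alternative apart from a minimum change of 1, and 5 did not. *COL1A2* was lost with quantile normalization (0.14, adjusted p = 0.29). *COL18A1* was lost without DMSO 48 h replicate 1 (-0.92, adjusted p = 0.054) or AZD5153 48 h replicate 3 (-0.93, adjusted p = 0.053), and *LAMA5* without AZD5153 24 h replicate 2 (-0.59, adjusted p = 0.059) or AZD5153 48 h replicate 3 (-0.58, adjusted p = 0.059). *COL4A6* was lost without DMSO 24 h replicate 2, AZD5153 24 h replicate 1 or 3, DMSO 48 h replicate 1 or 3, or AZD5153 48 h replicate 2 or 3 (0.47 to 0.58, adjusted p up to 0.081). *TGFBI* was lost without DMSO 24 h replicate 2, AZD5153 24 h replicate 2 or 3, any DMSO 48 h library, or AZD5153 48 h replicate 1 or 3 (-0.64 to -0.91, adjusted p up to 0.084), with no minimum mean and with quantile normalization. Groups of 3 libraries are too small for a test of single outlying libraries.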

How the results depend on the processing

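Of the members called, 36 of 40 at 24 hours, 37 of 39 at 48 hours, 18 of 23 for the difference between times and 12 of 21 for culture time in DMSO kept their call under every alternative with the member in the fit, apart from the minimum change of 1. With that minimum, 2 members were higher at 24 hours and 1 at 48 hours, 0 were higher and 8 lower for the difference, and 1 was higher and 0 lower over time in DMSO. Over time in DMSO, 8 were higher with only the groups compared, and 5 were lower with quantile normalization. Leaving out each library gave 8 to 9 higher and 30 to 31 lower at 24 hours, 6 higher and 32 to 33 lower at 48 hours, 4 to 9 higher (9 without DMSO 24 h replicate 1) and 16 to 20 lower for the difference, and 8 to 15 higher (8 without DMSO 48 h replicate 2) and 7 to 10 lower over time in DMSO. *FN1* at 24 hours was 0.00 with quantile normalization (adjusted p = 1), by construction. The basement membrane median at 24 hours, 0.08, was -0.04 with equal totals and lay between -0.13 (without DMSO 24 h replicate 1) and 0.25 when single libraries were left out, and the cause was not tested. Equal totals moved the median of all genes by -0.12 at 24 hours and -0.17 at 48 hours, and at 48 hours the split of all genes was 3896 higher and 6511 lower, against 5159 and 5294.

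For libraries with the same replicate number, the correlations of their deviations lay between -0.151 and 0.0363, against -0.109 to 0.154 for unlike numbers. The labels do not say whether a shared number stands for a shared culture or batch, and these correlations cannot decide it. With the replicate block, 12 members were higher over time in DMSO, where *COL18A1* no longer passed (0.56, adjusted p = 0.059), and no other member call changed. Members with few reads (*COL3A1*, *COL5A1*, *POSTN*, *DCN*) have folds that depend on the pseudocount. The same holds for genes of the other lists with few reads, such as *COL28A1*.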
